A study of Mus musculus with 12 samples.

Results

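Cells clear alcohols, aldehydes and foreign compounds in steps, and 6 gene families of those steps are described here across epithelial cells of the circumvallate papilla, which lies far back on the mouse tongue and holds many taste buds. The members are the genes whose symbols mark them as alcohol dehydrogenases (Adh), aldehyde dehydrogenases (Aldh), glutathione S-transferases of the alpha, mu, pi, theta, kappa and omega classes (Gst), UDP-glucuronosyltransferases and related enzymes (Ugt), sulfotransferases (Sult) and flavin-containing monooxygenases (Fmo). Of 52670 symbols measured, 106 matched, and 55 of these reached a mean of 1 TPM (a level per library total, corrected for transcript length) in at least 1 bin of cells. Those 55 were 3 of 7 Adh, 18 of 21 Aldh, 21 of 22 Gst, 7 of 22 Ugt, 3 of 27 Sult and 3 of 7 Fmo genes. Of the other 51, 31 had no count in any library. Just inside the threshold were Gstp3 (1.02 TPM in its highest bin), Ugt1a2 (1.18) and Gsta5 (1.29), and just outside it was Sult1b1 (0.983).

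The cells came from adult mice of 11 to 12 weeks of genotype Sox2GFP, whose cells fluoresce green through a reporter of the transcription factor Sox2. Peeled and dissociated epithelium was sorted by green fluorescence into 4 bins, Low, MedLow, HiMed and High, and GFP-negative cells were discarded, so all 4 bins carry the reporter and no negative cells serve as a control. Each bin has 3 libraries of polyadenylated RNA, and each replicate pooled 7 to 13 mice. Libraries held 25.7 M (Low replicate 2) to 55.6 M (HiMed replicate 3) counts, and the members took 0.346 to 0.763% of them. Sox2 itself was at 342 ± 16.4 TPM in High and 55.9 ± 4.77 TPM in Low (SD, n = 3), a log2 fold change of 2.41 (SE 0.08, adjusted p = 8.5e-12). The bins are mixtures of cell types. Summed markers of basal keratinocytes were at 3570 to 5448 TPM in High and 26568 to 27014 in Low, and those of suprabasal keratinocytes at 4418 to 6603 TPM in High, 15840 to 37779 in HiMed, 35985 to 38679 in MedLow and 13378 to 15566 in Low. Fewer cells of a type and less RNA per cell cannot be told apart in such libraries.

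As background, Adh enzymes oxidise alcohols, retinol among them, to aldehydes, and Aldh enzymes oxidise aldehydes to acids, which for retinaldehyde yields the signal retinoic acid. Gst, Ugt and Sult enzymes couple reactive or fat-soluble molecules to glutathione, glucuronic acid or sulfate, and Fmo enzymes oxidise nitrogen and sulfur atoms. The surface epithelium of the mouth and upper gut is known to be rich in several of these enzymes, Adh7 and Aldh3a1 among them.

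Together these enzymes were a larger part of the RNA in brighter cells. Their summed level was 4433 ± 201 TPM in Low, 6507 ± 378 in MedLow, 9080 ± 704 in HiMed and 9327 ± 763 TPM in High (mean ± SD over 3 libraries, all 106 genes). Gst genes made up most of it, with 2850 ± 158, 4252 ± 339, 6216 ± 578 and 6063 ± 479.6 TPM from Low to High. Next came the Aldh genes with 1111 ± 50.8, 1366 ± 41.6, 1713 ± 187 and 2191 ± 178 TPM and the Adh genes with 212 ± 12.1, 505 ± 78.0, 710.3 ± 19.2 and 816 ± 147 TPM. The smaller families had other courses. Ugt genes summed to 116 ± 9.31, 208 ± 16.1, 207 ± 36.2 and 92.6 ± 24.6 TPM, Sult genes to 80.6 ± 11.5, 135 ± 16.1, 173 ± 8.93 and 139 ± 7.76 TPM, and Fmo genes to 62.3 ± 12.1, 40.3 ± 3.55, 62.0 ± 6.85 and 26.5 ± 4.41 TPM. The sum also became concentrated: Gsto1, Gsta4 and Aldh3a1 together gave 50.5% of it in Low, 55% in MedLow, 68.5% in HiMed, and 71.7% of it in High.

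**Figure D1:**
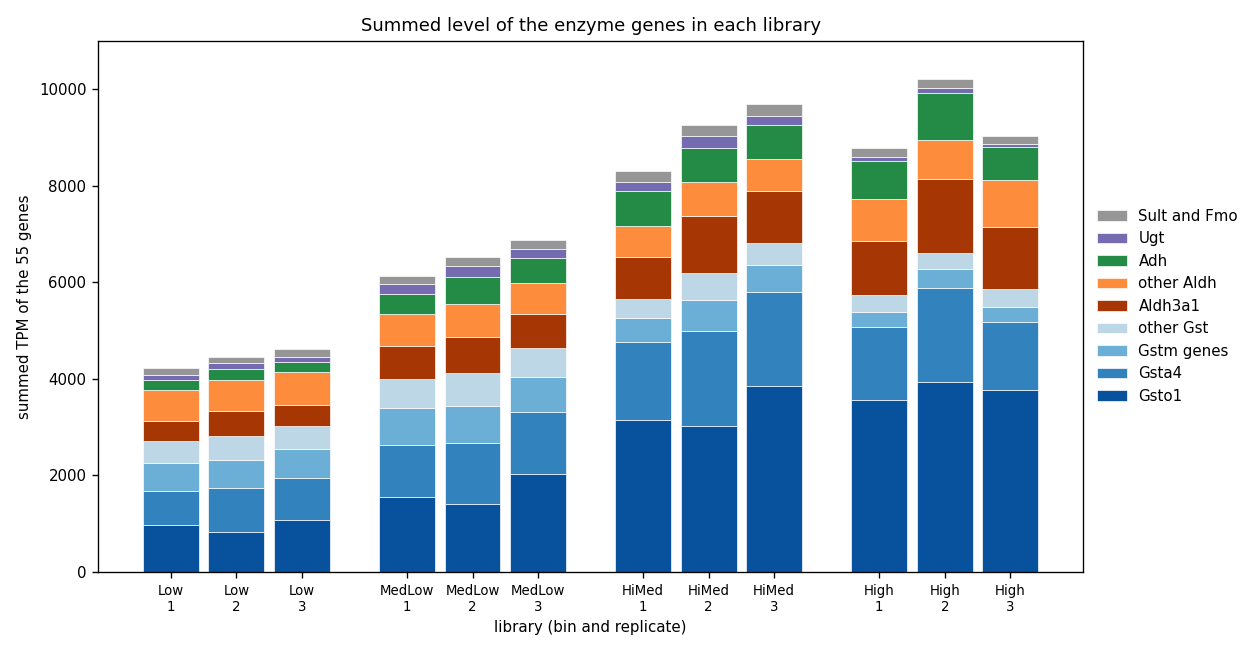
Summed level of the 55 expressed enzyme genes in TPM (vertical axis) in each of the 12 libraries (horizontal axis), split into single genes and families by colour. Every HiMed and High bar is taller than every Low and MedLow bar, and Gsto1 (darkest blue) makes up more than any other gene of the added height.

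Single members were tested on the counts with edgeR's quasi-likelihood test, with p adjusted by the Benjamini-Hochberg method over all 17432 genes tested and a call at an adjusted p below 0.05. All 55 expressed members and 7 of the others were tested. Between High and Low, 32 of the 55 were called, 14 higher in High and 18 lower, against 41.2% of all genes tested (20% higher, 21.2% lower). The step from HiMed to High called 22, with 4 higher in High and 18 lower (22.3% of all genes, 10.6% higher and 11.7% lower). Between HiMed and MedLow 9 were higher in HiMed and 9 lower (13.6% of all genes, 7.33% higher and 6.3% lower), and between MedLow and Low 14 were higher in MedLow and 2 lower (6.47% of all genes, 3.96% higher and 2.5% lower). Any difference among the bins was called for 37 of the 55, against 42% of all genes and 48.0% of those that also reached 1 TPM in some bin. Overlap between the libraries of the bins compared was counted on counts scaled by library size and TMM factor, not on TPM. On that scale there was no overlap for 36 of the 55 between High and Low (52.4% of all genes) and 26 between High and HiMed (35.3%). The same held for 26 between HiMed and MedLow (32.8%) and 35 between MedLow and Low (27.4%). A member that reached 1 TPM in a single bin entered the set through the bin where it was highest, so these shares are a description of the set. The median log2 fold change of the 55 was 0.43 for MedLow over Low, -0.09 for HiMed over MedLow, -0.39 for High over HiMed and -0.13 for High over Low, beside medians over all genes between -0.02 and 0. On the scale of log2(TPM + 1), where the median of all genes lay 0.19 higher for High over Low, the calls were 16 higher and 13 lower in High. At HiMed over MedLow the count was 9 without MedLow replicate 1, MedLow replicate 2 or HiMed replicate 3, and at MedLow over Low it was 10 without Low replicate 2.

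Of the 37 members that differed, 10 had their highest mean in High, 10 in HiMed, 10 in MedLow and 7 in Low. In 5 the mean rose at each step (Adh7, Aldh1a3, Aldh3a1, Aldh5a1 and Gsto1), and in 6 it fell at each step (Aldh1b1, Aldh4a1, Aldh6a1, Aldh7a1, Fmo1 and Sult5a1). Of all 7132 called genes that reached 1 TPM, 3227 had their highest mean in High, 1008 in HiMed, 905 in MedLow and 1992 in Low. The mean rose at each step in 21.6% of these genes and fell at each step in 15.8%.

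**Figure D2:**
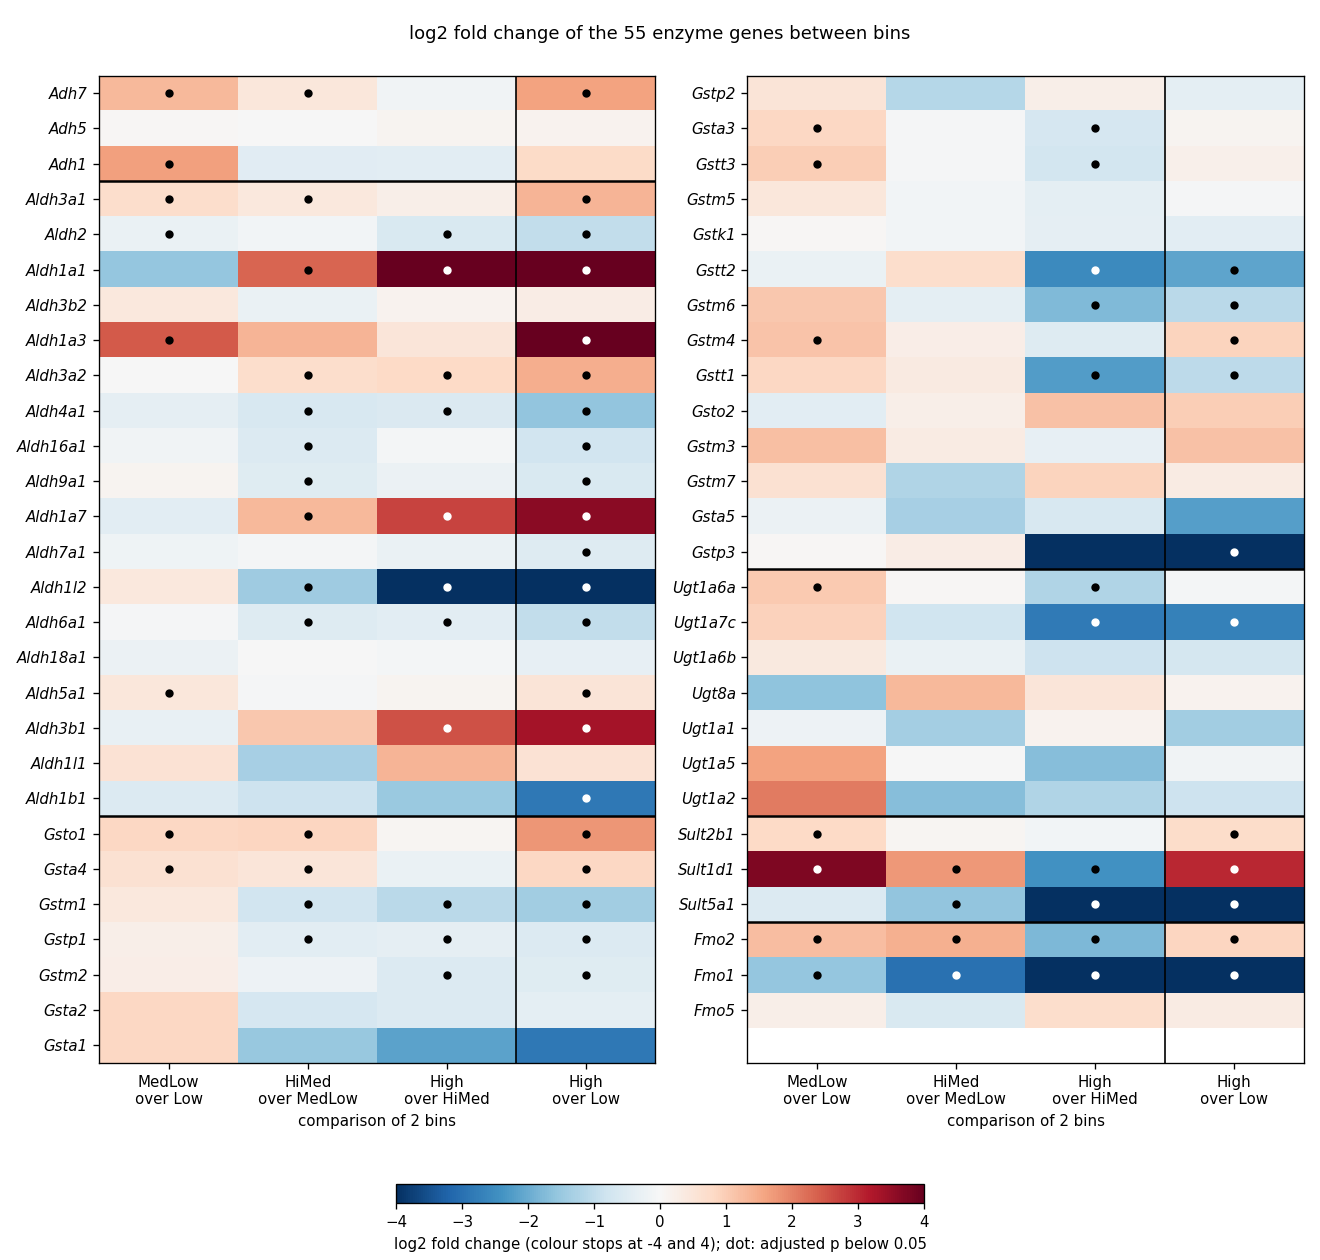
Fitted log2 fold change (colour, red for higher in the bin named first) of the 55 expressed enzyme genes (rows, ordered by family and then by level) in 4 comparisons of bins (columns). A dot marks an adjusted p below 0.05: 14 dots at MedLow over Low are red and 2 blue, while at High over HiMed 4 are red and 18 blue.

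The alcohol dehydrogenases were led by Adh7, the class IV enzyme that oxidises retinol and ethanol in surface epithelia. Adh7 was at 156, 163 and 157 TPM in Low, 357, 506 and 467 in MedLow, 669.7, 635 and 640.4 in HiMed, and 723, 914 and 601 in High. Every library above Low was above all Low libraries, and the HiMed and High libraries overlapped. Its log2 fold change was 1.62 for High over Low (SE 0.14, adjusted p = 5.4e-07), 1.3 for MedLow over Low (SE 0.14, adjusted p = 6.4e-05) and 0.45 for HiMed over MedLow (SE 0.14, adjusted p = 0.0431). The last of these was not called without any 1 of the HiMed or MedLow libraries, High replicate 1 or Low replicate 1 (adjusted p 0.0597 to 0.128). Adh5, which clears formaldehyde bound to glutathione, was nearly level, at 49.7 ± 10.1 TPM in Low, 50.7 ± 4.28 in MedLow, 52.5 ± 4.83 in HiMed and 62.5 ± 8.05 TPM in High, and was called in no comparison. Adh1, the class I ethanol-oxidising enzyme, was low everywhere, with 2.85, 4.18 and 4.40 TPM in Low, 13.2, 12.4 and 8.03 in MedLow, 4.75, 13.4 and 9.36 in HiMed, and 4.23, 6.02 and 11.2 in High. Its only call was MedLow over Low (1.63, SE 0.43, adjusted p = 0.0382), which leaving out any Low library, MedLow replicate 1 or 2, HiMed replicate 3 or High replicate 2 ended (adjusted p 0.0506 to 0.161). Adh7 alone made up 3.58% of the summed TPM of all members in Low and 7.96% in High.

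**Figure D3:**
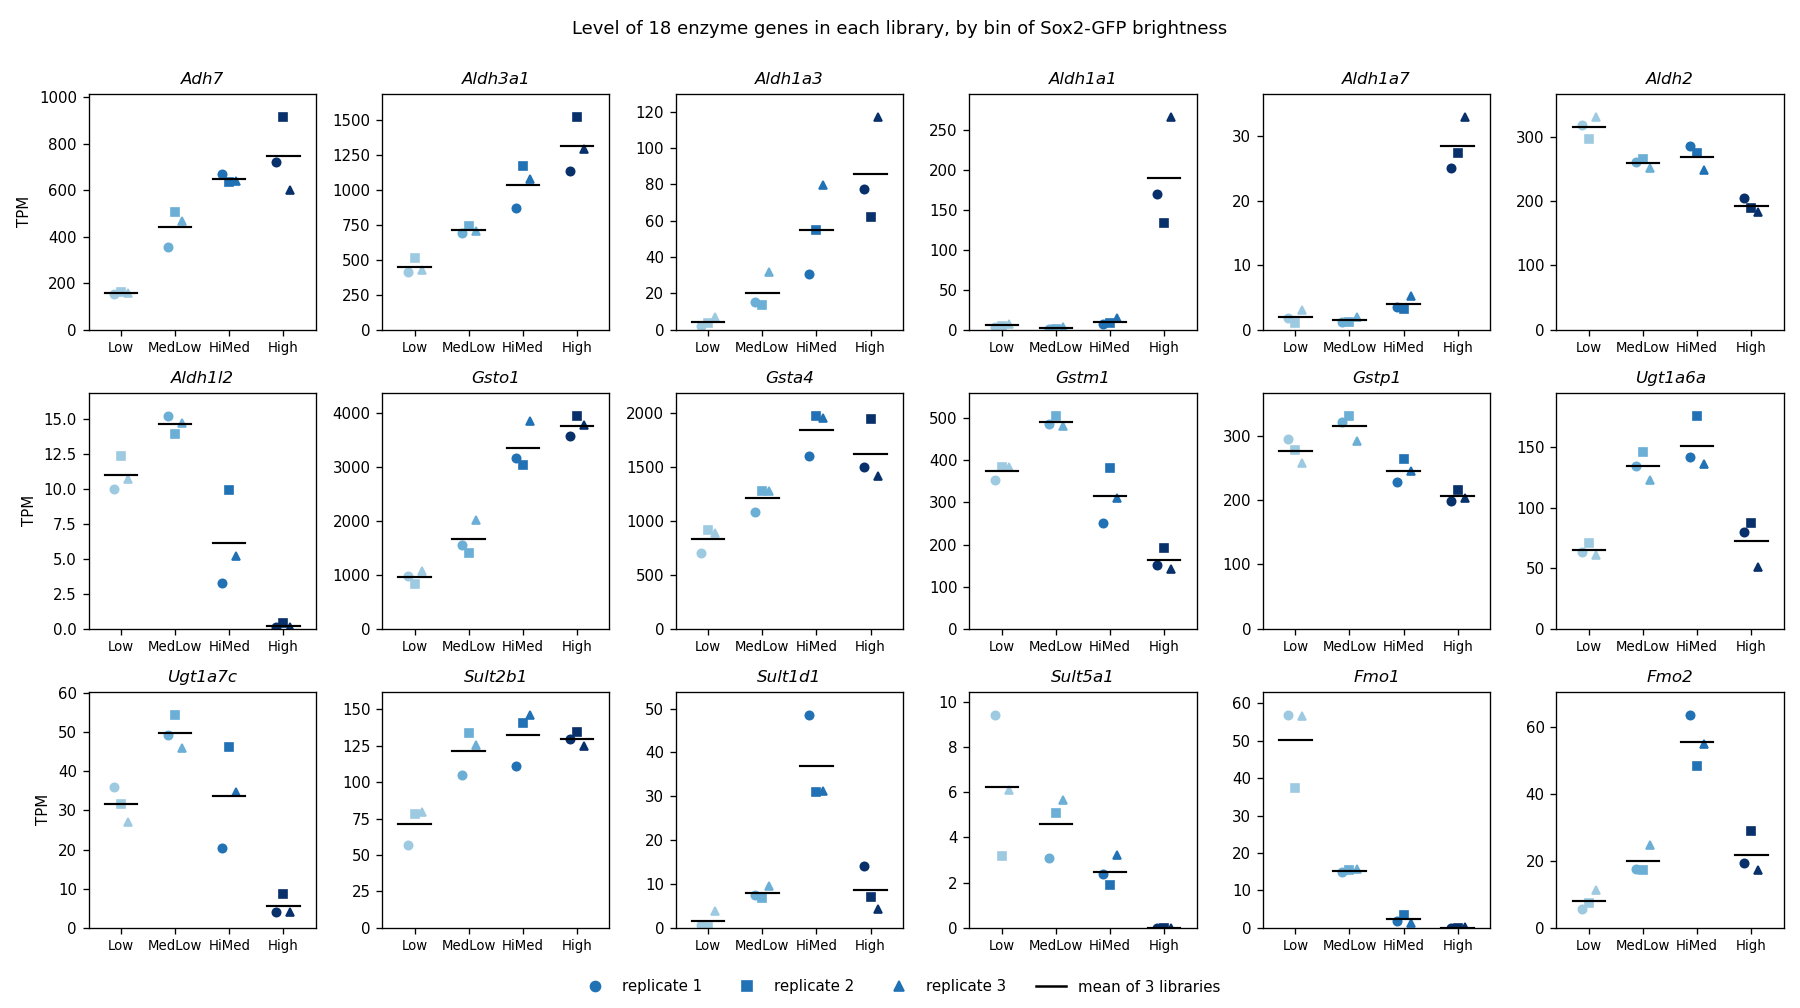
Level in TPM (vertical axis, from 0, a scale of its own in each panel) of 18 members in the 3 libraries of each bin (horizontal axis, dimmest to brightest); symbols mark the replicate and black lines the mean. Aldh1a1 is at 134 TPM or more in every High library and at most 14.3 elsewhere, Fmo1 runs the other way, and Sult1d1 and Fmo2 are highest in HiMed.

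Most aldehyde dehydrogenases differed between High and Low: 7 of 18 were higher in High, 8 lower and 3 not called (20% of all genes higher and 21.2% lower). Of the 4 Aldh3 genes, 3 rose and none fell, of the 6 Aldh1 genes 3 rose and 2 fell, and of the 8 others 1 rose and 6 fell. Aldh3a1, which oxidises aldehydes formed from peroxidised lipids and is best known as a cornea protein, was the most abundant. It was at 413, 513 and 431 TPM in Low, 692, 746 and 705 in MedLow, 872, 1169.8 and 1077 in HiMed, and 1135, 1522 and 1295 in High. Bins next to each other did not overlap except HiMed and High. The log2 fold change was 1.35 for High over Low (SE 0.13, adjusted p = 1.7e-06), 0.69 for MedLow over Low (SE 0.13, adjusted p = 0.00554) and 0.43 for HiMed over MedLow (SE 0.13, adjusted p = 0.0447). The HiMed over MedLow call was lost without HiMed replicate 2 or 3, any MedLow library, High replicate 3 or Low replicate 1 or 3 (adjusted p 0.0559 to 0.148). Its neighbour in the genome, Aldh3a2, an enzyme for long-chain fatty aldehydes, rose later. Aldh3a2 was at 17.5 ± 2.24 TPM in Low, 16.4 ± 0.393 in MedLow, 31.4 ± 5.34 in HiMed and 56.1 ± 14.3 TPM in High, with log2 fold changes of 0.70 for HiMed over MedLow (SE 0.11, adjusted p = 7.3e-04) and 0.78 for High over HiMed (SE 0.11, adjusted p = 1.5e-04).

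Aldh1a1 and Aldh1a7 were the members most sharply raised in the brightest bin. Aldh1a1 turns retinaldehyde into retinoic acid, and Aldh1a7 is its rodent paralog, adjacent in the genome and on the opposite strand in the annotation. Before one of its annotated starts, the Aldh1a1 promoter closely matches that of Aldh1a7: of the 110 bases before each start, 104 (94.5%) are the same. The stretches are shown because these genes moved together, with the 6 bases that differ in capitals (RefSeq, GRCm38.p6, chr19:20601858-20601967 on the plus strand and chr19:20727557-20727666 on the minus strand).
Aldh1a1: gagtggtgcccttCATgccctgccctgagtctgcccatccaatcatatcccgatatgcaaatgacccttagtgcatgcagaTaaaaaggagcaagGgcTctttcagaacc
Aldh1a7: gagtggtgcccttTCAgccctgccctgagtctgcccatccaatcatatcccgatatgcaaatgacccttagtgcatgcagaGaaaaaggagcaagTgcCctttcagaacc

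Aldh1a1 had 3.98, 4.78 and 7.61 TPM in Low, 0.779, 1.41 and 3.29 in MedLow, 6.74, 8.11 and 14.3 in HiMed, and 171, 134 and 266 in High. All High libraries were far above the other 9, and in each bin replicate 3 was the highest. On the log2 scale the fold change was 4.16 for High over HiMed (SE 0.52, adjusted p = 6.0e-04), 2.32 for HiMed over MedLow (SE 0.55, adjusted p = 0.0241) and 4.92 for High over Low (SE 0.55, adjusted p = 9.6e-05). MedLow over Low was -1.56 (SE 0.56, adjusted p = 0.178) and was called with a replicate block (adjusted p = 0.00101). Aldh1a7 had 1.89, 1.09 and 3.03 TPM in Low, 1.27, 1.18 and 2.02 in MedLow, 3.58, 3.15 and 5.21 in HiMed, and 25.1, 27.4 and 33.0 in High. The order of the bins was the same for both genes. Aldh1a7 rose by 2.72 for High over HiMed (SE 0.32, adjusted p = 2.6e-05), 1.31 for HiMed over MedLow (SE 0.32, adjusted p = 0.0126) and 3.61 for High over Low (SE 0.34, adjusted p = 5.6e-07). For both genes HiMed over MedLow was not called without HiMed replicate 3 or MedLow replicate 1 or 2 (adjusted p 0.0576 to 0.109). Aldh1a7 shares 13.8% of its 31-base words with Aldh1a1 transcripts, so a small part of its estimate may rest on how reads were divided. Markers of type I taste cells, the glia-like cells of the taste bud, had their highest sum in High, as these genes did. Below High the order differed, and the marker sum was lowest in HiMed. It was 177 to 340 TPM in High, 14 to 14.3 in HiMed, 22.2 to 22.4 in MedLow and 33.6 to 38.6 in Low. Of the 4 markers, 3 were higher in High than in Low and 1 lower. The lower one, Slc1a3, had 19.5 TPM in Low and 0.0312 TPM in High, and was at 0 in 2 High libraries. The type I marker Entpd2 was at 184, 151 and 279 TPM in High replicates 1, 2 and 3. Aldh1a1 was likewise lowest in replicate 2 and highest in replicate 3, while Aldh1a7 was lowest in replicate 1. Markers of other cell types had the order of Entpd2 too. Otop1 of type III taste cells was at 83.4, 44.3 and 113.5 TPM, and Vwf of endothelium at 24.1, 20.1 and 29.8 TPM. Of the 7 type III markers 1 was higher and 4 were lower in High than in Low. The part of these cell types in the result was not tested.

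Aldh1a3, another retinaldehyde dehydrogenase, rose earlier than its relatives. It had 2.28, 3.70 and 6.85 TPM in Low, 15.3, 13.8 and 31.9 in MedLow, 30.4, 54.9 and 79.6 in HiMed, and 77.6, 62.0 and 117 in High. The Low libraries were below all others, while neighbouring brighter bins overlapped. The log2 fold change was 4.32 for High over Low (SE 0.59, adjusted p = 3.8e-04) and 2.45 for MedLow over Low (SE 0.56, adjusted p = 0.0370). HiMed over MedLow was 1.37 (SE 0.52, adjusted p = 0.13) and was called with a replicate block (adjusted p = 0.00247). The MedLow over Low call was lost without Low replicate 1 or 2, any MedLow library, HiMed replicate 2 or High replicate 1 or 2 (adjusted p 0.0507 to 0.137). Aldh1a2, the third retinaldehyde dehydrogenase, was above 0 in 1 library only, Low replicate 3, at 0.132 TPM. Aldh3b1, an enzyme for lipid-derived aldehydes, was rare and high in High alone, with 3.69, 6.36 and 10.9 TPM there and 1.39 ± 0.506 TPM in HiMed, 0.485 ± 0.158 in MedLow and 0.666 ± 0.276 in Low. High over HiMed was 2.55 (SE 0.60, adjusted p = 0.00640), or 2.09 (adjusted p = 0.0539) without High replicate 3. Its more abundant relative Aldh3b2 had 187 ± 19.5 TPM in High and 133 ± 8.81 in Low and was called in no comparison on the counts, although without HiMed replicate 2 it was called for HiMed over MedLow (-0.48, adjusted p = 0.0425). On log2(TPM + 1) Aldh3b2 was called for High over Low (0.49, adjusted p = 0.0264). Aldh3b2 shares 30.7% and Aldh3b1 15.2% of their words with other members, mostly Aldh3b3.

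Lower in High than in Low were 6 of the 8 genes outside the Aldh1 and Aldh3 subfamilies and 2 Aldh1 genes (21.2% of all genes). Aldh2, the mitochondrial enzyme that clears acetaldehyde, had 319, 296 and 330.1 TPM in Low, 261, 266 and 251 in MedLow, 285, 275 and 248 in HiMed, and 205, 189 and 183 in High. All High libraries were below all others. Aldh2 fell by 0.97 for High over Low (SE 0.07, adjusted p = 3.5e-08) and by 0.61 for High over HiMed (SE 0.07, adjusted p = 2.0e-05). MedLow over Low was -0.25 (SE 0.07, adjusted p = 0.0416), a call lost without any Low or MedLow library, HiMed replicate 2 or 3, or High replicate 1 (adjusted p 0.0532 to 0.239). The steepest fall was that of Aldh1l2, the mitochondrial 10-formyltetrahydrofolate dehydrogenase of folate metabolism. Aldh1l2 had 9.97, 12.3 and 10.7 TPM in Low, 15.2, 14 and 14.7 in MedLow, 3.29, 9.93 and 5.20 in HiMed, and 0.108, 0.430 and 0.132 in High. It was nearly absent from High alone, with a log2 fold change of -5.98 for High over Low (SE 0.48, adjusted p = 3.3e-06) and -5.01 for High over HiMed (SE 0.47, adjusted p = 4.5e-05). HiMed over MedLow (-1.41, SE 0.36, adjusted p = 0.0285) was lost without any MedLow library, HiMed replicate 1 or 3, or Low replicate 1 (adjusted p 0.0509 to 0.113). Aldh4a1, of proline breakdown, had a lower mean at each step, with 41.9 ± 0.254 TPM in Low, 32.6 ± 1.74 in MedLow, 22.7 ± 3.42 in HiMed and 16.3 ± 2.34 TPM in High (High over Low -1.57, SE 0.11, adjusted p = 4.2e-08). Also lower in High than in Low were Aldh6a1 of valine breakdown (-0.99, SE 0.14, adjusted p = 4.6e-05), Aldh1b1, another mitochondrial acetaldehyde enzyme (-2.85, SE 0.63, adjusted p = 0.00189), and Aldh9a1, which handles aminoaldehydes (-0.60, SE 0.10, adjusted p = 1.5e-04). Aldh16a1 (-0.76, adjusted p = 6.3e-06) and Aldh7a1 of lysine breakdown (-0.53, adjusted p = 0.00923) fell on the count scale only. On the scale of log2(TPM + 1) they were at -0.22 (adjusted p = 0.347) and -0.18 (adjusted p = 0.512) and their libraries overlapped, with Aldh16a1 at 33.7 ± 8.07 TPM in High and 38.7 ± 3.36 in Low, and Aldh7a1 at 22.2 ± 5.20 TPM in High and 25.0 ± 2.64 in Low. Higher in High was Aldh5a1, which oxidises succinic semialdehyde. Aldh5a1 had 9.11 ± 0.381 TPM in High and 5.45 ± 0.587 in Low (0.51, SE 0.12, adjusted p = 0.00303). Aldh18a1, a proline synthesis enzyme at 11.1 to 14.1 TPM in the bin means, and Aldh1l1, the cytosolic relative of Aldh1l2 at 1.11 to 3.45 TPM, were called in no comparison.

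Among the glutathione S-transferases the 2 most abundant members rose while most of the others did not. Between High and Low 3 of 21 rose, 7 fell and 11 were not called. The called share of 47.6% was near the 41.2% of all genes (20% higher and 21.2% lower). Between High and HiMed none rose and 8 fell (10.6% and 11.7% of all genes). Gsto1, an omega-class enzyme that reduces disulfides and dehydroascorbate more than it conjugates, was the most abundant of all members in every bin. Gsto1 had 974, 824 and 1068 TPM in Low, 1556, 1399.7 and 2023 in MedLow, 3154, 3028 and 3852 in HiMed, and 3566, 3933 and 3767 in High. Low, MedLow and HiMed did not overlap, and HiMed and High did. Its log2 fold changes were 0.84 for MedLow over Low (SE 0.15, adjusted p = 0.00356), 0.86 for HiMed over MedLow (SE 0.15, adjusted p = 0.00160), 0.08 for High over HiMed (SE 0.15, adjusted p = 0.774) and 1.78 for High over Low (SE 0.15, adjusted p = 5.8e-07). It gave 21.6% of the summed TPM of all members in Low and 40.3% in High. Its neighbour Gsto2 was rare, at 4.48 ± 2.94 TPM in High and 2.38 ± 1.5 in Low, and was not called.

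Gsta4, the alpha-class enzyme specialised for the lipid peroxidation product 4-hydroxynonenal, had 703, 911 and 883 TPM in Low, 1081, 1273 and 1281 in MedLow, 1603, 1969 and 1954 in HiMed, and 1496, 1948 and 1414 in High. It rose through HiMed and levelled off, with 0.59 for MedLow over Low (SE 0.14, adjusted p = 0.0213), 0.50 for HiMed over MedLow (SE 0.14, adjusted p = 0.0307) and 0.82 for High over Low (SE 0.14, adjusted p = 3.3e-04). The 2 smaller steps were each lost without some libraries: MedLow over Low without Low replicate 1 or 2 or MedLow replicate 2 or 3 (adjusted p 0.0508 to 0.0914), and HiMed over MedLow without HiMed replicate 2 or 3 or any MedLow library (adjusted p 0.0598 to 0.115). High over HiMed was -0.28 (adjusted p = 0.185) and was called with a replicate block (adjusted p = 0.0357) and, at -0.45, without High replicate 2 (adjusted p = 0.0168). The near-identical pair Gsta1 and Gsta2, which share 56.6% and 44.7% of their words with other members, cannot be separated with confidence. Gsta1 was listed at 0 in HiMed replicate 1 and had 8.13 ± 5.13 TPM in High and 53.2 ± 14.5 in Low (-2.85, SE 1.26, adjusted p = 0.108). That difference was called without HiMed replicate 1 (-2.85, adjusted p = 0.00228) and with the 6 High and Low libraries alone (adjusted p = 0.00278). Gsta3 was higher in MedLow than in Low (0.82, SE 0.19, adjusted p = 0.0132) and lower in High than in HiMed (-0.66, SE 0.18, adjusted p = 0.0166). The first of these was lost without Low replicate 2 (adjusted p = 0.0581), and the second without HiMed replicate 2 (adjusted p = 0.0653) or High replicate 1 (adjusted p = 0.0658).

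The mu class had another course. Its 7 members together were at 584 ± 9.97 TPM in Low, 748 ± 8.33 in MedLow, 559 ± 70.8 in HiMed and 339.7 ± 41.4 TPM in High. Gstm1, the main mu-class enzyme, had 354, 385 and 384 TPM in Low, 486, 504 and 481 in MedLow, 250.4, 382 and 311 in HiMed, and 152, 192 and 143 in High. MedLow stood above every other library and High below every other library. Log2 fold changes were -0.76 for HiMed over MedLow (SE 0.16, adjusted p = 0.00624), -1.07 for High over HiMed (SE 0.16, adjusted p = 3.8e-04) and -1.39 for High over Low (SE 0.16, adjusted p = 1.4e-05). MedLow over Low was 0.43 (SE 0.15, adjusted p = 0.144) and was called with a replicate block (adjusted p = 0.0432) and without HiMed replicate 1 or 2 (adjusted p = 0.0296 and 0.0459). Gstm2 fell by 0.48 for High over Low (SE 0.09, adjusted p = 5.4e-04). Gstm6 was higher in all MedLow and HiMed libraries (7.49 to 12.7 TPM) than in High (2.33 to 4.08) or Low (3.42 to 6.51). High over HiMed was -1.77 (SE 0.41, adjusted p = 0.00526). High over Low, -1.08 (SE 0.40, adjusted p = 0.0430), was lost with a replicate block (adjusted p = 0.0550) and without any MedLow library, Low replicate 1 or 3, HiMed replicate 2 or 3 or High replicate 2 or 3 (adjusted p 0.0574 to 0.177). Gstm4 ran against its class, with 3.57, 2.40 and 4.36 TPM in Low, 7.23, 8.66 and 7.61 in MedLow, 11.7, 8.20 and 8.56 in HiMed, and 7.26, 6.80 and 7.33 in High. All brighter libraries were above Low (MedLow over Low 1.16, SE 0.25, adjusted p = 0.00910, and High over Low 0.90, SE 0.24, adjusted p = 0.00787). Gstm3, Gstm5 and Gstm7 were called in no comparison, and Gstm1 and Gstm3 share 15.4% and 22.4% of their words with other members. The sum of the suprabasal keratinocyte markers was mostly highest in MedLow, as Gstm1 was, but HiMed replicate 2 (37779 TPM) was above MedLow replicate 1 (35985 TPM). Krtdap was highest in HiMed (8285 TPM, with 7004 in MedLow). Of these 8 markers 5 were lower in High than in Low and 1 higher, and none was at 0 in every library. Their part in the result was not tested.

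Of the 3 pi-class genes 2 were lower in High than in Low, as were 2 of the 3 theta-class genes, and none was higher (21.2% of all genes lower and 20% higher). Gstp1, the pi-class enzyme typical of epithelia, had 295, 278 and 258 TPM in Low, 321, 330.0 and 292 in MedLow, 228, 263 and 245 in HiMed, and 199, 215 and 203 in High. The differences were small and the High libraries were below all others, with -0.43 for HiMed over MedLow (SE 0.09, adjusted p = 0.00420), -0.36 for High over HiMed (SE 0.09, adjusted p = 0.00877) and -0.54 for High over Low (SE 0.09, adjusted p = 1.4e-04). Gstp1 and Gstp2 share 38.5% and 54.8% of their words with other members, so the division between them is uncertain. Gstp2 did not pass the test for HiMed over MedLow (-1.13, adjusted p = 0.0999), and it did with a replicate block (adjusted p = 0.0148), with DESeq2 (adjusted p = 0.0370) and without HiMed replicate 2 (adjusted p = 0.0142). Gstp3 had 25 counts in Low, 26 counts in MedLow, 34 counts in HiMed and none in High, which is at least 11.8-fold lower in High than in Low. That bound sets the Low level against a floor of 3 counts over the 3 High libraries and covers counting error only. The Gstp3 call (adjusted p = 0.045) was lost with a replicate block (adjusted p = 0.0760) and without any library other than HiMed replicate 1 (adjusted p 0.0549 to 0.109).

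The 3 expressed theta-class genes, which lie in one run of Gstt genes, were all lower in High than in HiMed (11.7% of all genes). Gstt1 had 3.31, 3.19 and 4.31 TPM in Low, 7.29, 7.66 and 4.75 in MedLow, 6.75, 9.55 and 9.21 in HiMed, and 1.43, 2.77 and 1.60 in High. Its High libraries were below every other library, with -2.22 for High over HiMed (SE 0.41, adjusted p = 0.00103) and -1.05 for High over Low (SE 0.40, adjusted p = 0.0469). The High over Low call was lost with a replicate block (adjusted p = 0.0514) and without any 1 of 10 libraries, all but High replicate 2 and HiMed replicate 1 (adjusted p 0.0567 to 0.146). Gstt2 had 3.64, 6.04 and 7.81 TPM in Low, 9.77, 5.10 and 4.83 in MedLow, 22.7, 5.47 and 8.70 in HiMed, and 1.47, 2.43 and 2.26 in High. HiMed replicate 1 stood far above the other 11 libraries, and the High libraries were again the lowest (High over HiMed -2.55, SE 0.53, adjusted p = 0.00281, and High over Low -2.11, SE 0.53, adjusted p = 0.00447). On the scale of log2(TPM + 1), Gstt2 was not called for High over Low (-1.13, adjusted p = 0.0533). Gstt3 had 14 ± 0.246 TPM in Low, 27.7 ± 1.95 in MedLow, 30.7 ± 5.96 in HiMed and 20.4 ± 1.67 TPM in High (MedLow over Low 0.98, SE 0.13, adjusted p = 1.7e-04, and High over HiMed -0.72, SE 0.13, adjusted p = 6.8e-04). Gstk1, the kappa-class enzyme of mitochondria and peroxisomes, was at 14.9 to 17.8 TPM in the bin means and was called in no comparison.

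The glucuronosyltransferases were expressed from the Ugt1a locus, where alternative first exons are spliced to shared exons, and none of the 10 Ugt2 genes reached 1 TPM. Because of the shared exons, 53.0 to 84.2% of the words of the 6 expressed Ugt1a genes occur in other members, and the division of reads between them is uncertain. Ugt1a6a had 63.6, 71.0 and 60.9 TPM in Low, 134, 146 and 123 in MedLow, 142, 175 and 136 in HiMed, and 79.5, 87.5 and 50.7 in High. The middle bins were above both ends, and Low and High overlapped. The log2 fold change was 1.05 for MedLow over Low (SE 0.19, adjusted p = 0.00596), -1.19 for High over HiMed (SE 0.19, adjusted p = 8.8e-04) and -0.08 for High over Low (SE 0.19, adjusted p = 0.775). Ugt1a7c had 35.9, 31.6 and 27.1 TPM in Low, 49.3, 54.3 and 45.9 in MedLow, 20.5, 46.2 and 34.6 in HiMed, and 3.95, 8.74 and 4.00 in High. It fell sharply in the brightest bin, by 2.84 for High over HiMed (SE 0.29, adjusted p = 6.4e-05) and by 2.69 for High over Low (SE 0.29, adjusted p = 2.4e-05). MedLow over Low was 0.93 (adjusted p = 0.0734) and was called without HiMed replicate 1 or 2 (adjusted p = 0.00628 and 0.0183), and HiMed over MedLow was -0.78 (adjusted p = 0.0855), or -1.1 (adjusted p = 0.00959) without HiMed replicate 2. Ugt1a6b had 16.2, 15.3 and 13.1 TPM in Low, 19.8, 19.6 and 18 in MedLow, 17, 21.6 and 12.9 in HiMed, and 8.56, 16.6 and 6.42 in High. It was not called for High over Low (-0.70, SE 0.31, adjusted p = 0.0914) or High over HiMed (-0.82, SE 0.31, adjusted p = 0.0794), and with a replicate block both were called (adjusted p = 0.00822 and 0.00804), as they were with DESeq2. Without High replicate 2 the values were -1.21 (adjusted p = 4.0e-04) and -1.33 (adjusted p = 4.5e-04). Ugt8a, which makes galactosylceramide, a lipid of myelin, was rare, with 2.66, 1.12 and 2.27 TPM in Low, 0.501, 0.813 and 0.538 in MedLow, 2.02, 1.76 and 0.775 in HiMed, and 1.70, 1.52 and 3.74 in High. It was called in the test of any difference and in no single comparison, but MedLow over Low was called without HiMed replicate 3 or High replicate 3 (-1.62, adjusted p = 0.0462 and 0.0428). A set of 4 Schwann cell markers summed to 2.96 to 6.31 TPM in High, 1.01 to 4.55 in HiMed, 0.662 to 1.22 in MedLow and 5.42 to 7.96 in Low, a link that was not tested.

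Only 3 of 27 sulfotransferase genes were expressed, and each had a course of its own. Sult2b1, which makes cholesterol sulfate in stratified epithelia, had 56.5, 77.9 and 79.5 TPM in Low, 105, 134 and 126 in MedLow, 111, 140.5 and 146 in HiMed, and 129.5, 134 and 125 in High. All brighter libraries were above Low, with 0.79 for MedLow over Low (SE 0.14, adjusted p = 0.00284) and 0.75 for High over Low (SE 0.14, adjusted p = 5.2e-04). Sult1d1, which sulfates phenols and amines such as dopamine, had 0.556, 0.134 and 3.84 TPM in Low, 7.45, 6.69 and 9.46 in MedLow, 48.4, 30.9 and 31.1 in HiMed, and 14.1, 7.03 and 4.40 in High. HiMed was above all other libraries. Sult1d1 had log2 fold changes of 3.72 for MedLow over Low (SE 0.49, adjusted p = 9.1e-04), 1.72 for HiMed over MedLow (SE 0.42, adjusted p = 0.0190), -2.42 for High over HiMed (SE 0.43, adjusted p = 0.00198) and 3.02 for High over Low (SE 0.49, adjusted p = 3.9e-04). HiMed over MedLow was lost without HiMed replicate 1 or 3 or MedLow replicate 1 or 2 (adjusted p 0.0537 to 0.0950). Sult5a1 had 9.39, 3.18 and 6.09 TPM in Low, 3.09, 5.08 and 5.66 in MedLow, 2.36, 1.87 and 3.2 in HiMed, and 0 in all 3 High libraries. With 529 counts in Low and 142 in HiMed, that is at least 249.6-fold lower in High than in Low and at least 52.7-fold lower than in HiMed, against the same floor (adjusted p = 4.2e-07 and 1.6e-05). HiMed over MedLow (-1.57, SE 0.48, adjusted p = 0.0468) was lost with a replicate block (adjusted p = 0.0660) and without any Low or MedLow library or HiMed replicate 1 or 3 (adjusted p 0.0578 to 0.140).

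The flavin-containing monooxygenases Fmo1 and Fmo2 are neighbours in the genome. From Low to HiMed Fmo1 fell while Fmo2 rose at each step, and both were lower in High than in HiMed. Fmo1 had 56.8, 37.3 and 56.7 TPM in Low, 14.8, 15.5 and 15.7 in MedLow, 1.74, 3.52 and 1.42 in HiMed, and 0, 0 and 0.0940 in High. No 2 bins overlapped. The log2 fold change was -1.55 for MedLow over Low (SE 0.31, adjusted p = 0.00714) and -2.98 for HiMed over MedLow (SE 0.34, adjusted p = 6.1e-05). High held 4 rounded counts, all in replicate 3, against 4409 in Low, a ratio of 1560-fold lower with a 95% counting interval of 609- to 5729-fold (adjusted p = 5.4e-09). Without High replicate 3, High was at 0, and the fitted log2 fold change of High over HiMed was -9.21 against -5.91 with it. Fibroblast markers followed the same order, with 2 of 9 lower and 1 higher in High than in Low and a sum of 4.28 to 13.0 TPM in High, 34.3 to 38.4 in HiMed, 93.9 to 171 in MedLow and 550.3 to 604 in Low. Dcn made up nearly all of that sum (576 TPM in Low), while 6 of the 9 markers were below 1 TPM in every bin, Col1a1 among them at 0.251 TPM in Low, and Lum was at 0 throughout. Their part in the result was not tested.

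Fmo2 had 5.60, 7.36 and 11.4 TPM in Low, 17.5, 17.3 and 24.7 in MedLow, 63.5, 48.2 and 55 in HiMed, and 19.3, 29.1 and 17.2 in High. HiMed was above every other library. Fmo2 rose by 1.25 for MedLow over Low (SE 0.21, adjusted p = 0.00397) and by 1.41 for HiMed over MedLow (SE 0.21, adjusted p = 8.3e-04), and High over HiMed was -1.80 (SE 0.21, adjusted p = 9.1e-05). Fmo2 and Sult1d1 were the members called higher in HiMed than in both neighbouring bins, a course shared by 121 of the 17432 genes tested. Markers of the von Ebner glands and ducts, which open into the trench of the papilla, summed to 573 to 980 TPM in High, 1365 to 2195 in HiMed, 429 to 967 in MedLow and 578 to 2039 in Low. Ltf made up nearly all of the HiMed sum, at 1699 TPM there and 329.8 TPM in Low. Bpifb1, Lipf and Dmbt1 went the other way, at 386, 336 and 259 TPM in Low and 0.245, 0 and 16.9 TPM in HiMed. Amy1 and Muc5b were also lower in HiMed than in Low. Besides Ltf, only Aqp5 was higher in HiMed (2.64 TPM) than in Low (1.92 TPM). Of these 11 markers 8 were tested, with 1 higher and 2 lower in High than in Low. Lcn11 and Prol1 were at 0 in every library. The 10 markers of type II taste cells summed to 426 to 609 TPM in HiMed and 157 to 210 in High. Their sum was 211 to 436 TPM in MedLow and 275 to 501 in Low. Plcb2, Gnb3, Gng13 and Tas1r3 had their highest mean in HiMed. Trpm5, Gnat3, Itpr3, Rgs21, Tas1r2 and Tas2r105 had it in Low. The part of either set of cells in the result was not tested. Fmo5 had 2.81, 2.96 and 2.82 TPM in Low, 4.95, 3.77 and 2.84 in MedLow, 3.62, 2.85 and 2.33 in HiMed, and 5.51, 2.43 and 5.92 in High, and was called in no comparison. Without High replicate 2, Fmo5 was called for High over HiMed (0.97, adjusted p = 0.0274).

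Genes that handle retinoids outside these families moved strongly. Of 16 tested, 8 were higher in High than in Low and 5 lower (20% and 21.2% of all genes), with a median log2 fold change of 0.96. Between MedLow and Low, 7 were higher in MedLow and none lower (3.96% and 2.5% of all genes). Cyp26a1, the enzyme that breaks down retinoic acid, had 0.257, 0.0378 and 0.792 TPM in Low, 2.56, 2.65 and 1.62 in MedLow, 12.7, 5.10 and 5.92 in HiMed, and 49.2, 60.8 and 50.3 in High. It was called higher at each step, with 7.58 for High over Low (SE 0.44, adjusted p = 9.6e-09). The retinoic acid receptor Rarb rose by 4.92 (53.1 ± 10.1 TPM in High and 2.23 ± 0.782 in Low, adjusted p = 5.9e-09) and the retinol-oxidising enzyme Dhrs9 by 4.96 (30.7 ± 6.32 TPM in High and 0.833 ± 0.592 in Low, adjusted p = 1.6e-05). The retinoic acid carrier Crabp1 went the other way, with 12.1 ± 8.04 TPM in High and 155 ± 23.1 in Low (-3.78, adjusted p = 3.7e-05). Also lower in High were Sdr16c5, another retinol oxidase (-1.37, adjusted p = 0.00669), and Cyp26b1, a relative of Cyp26a1 (-0.79, adjusted p = 0.00427). Whether these genes and the 3 retinoid oxidisers Adh7, Aldh1a1 and Aldh1a3 are active in the same cells cannot be read from sorted bulk libraries.

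**Figure D4:**
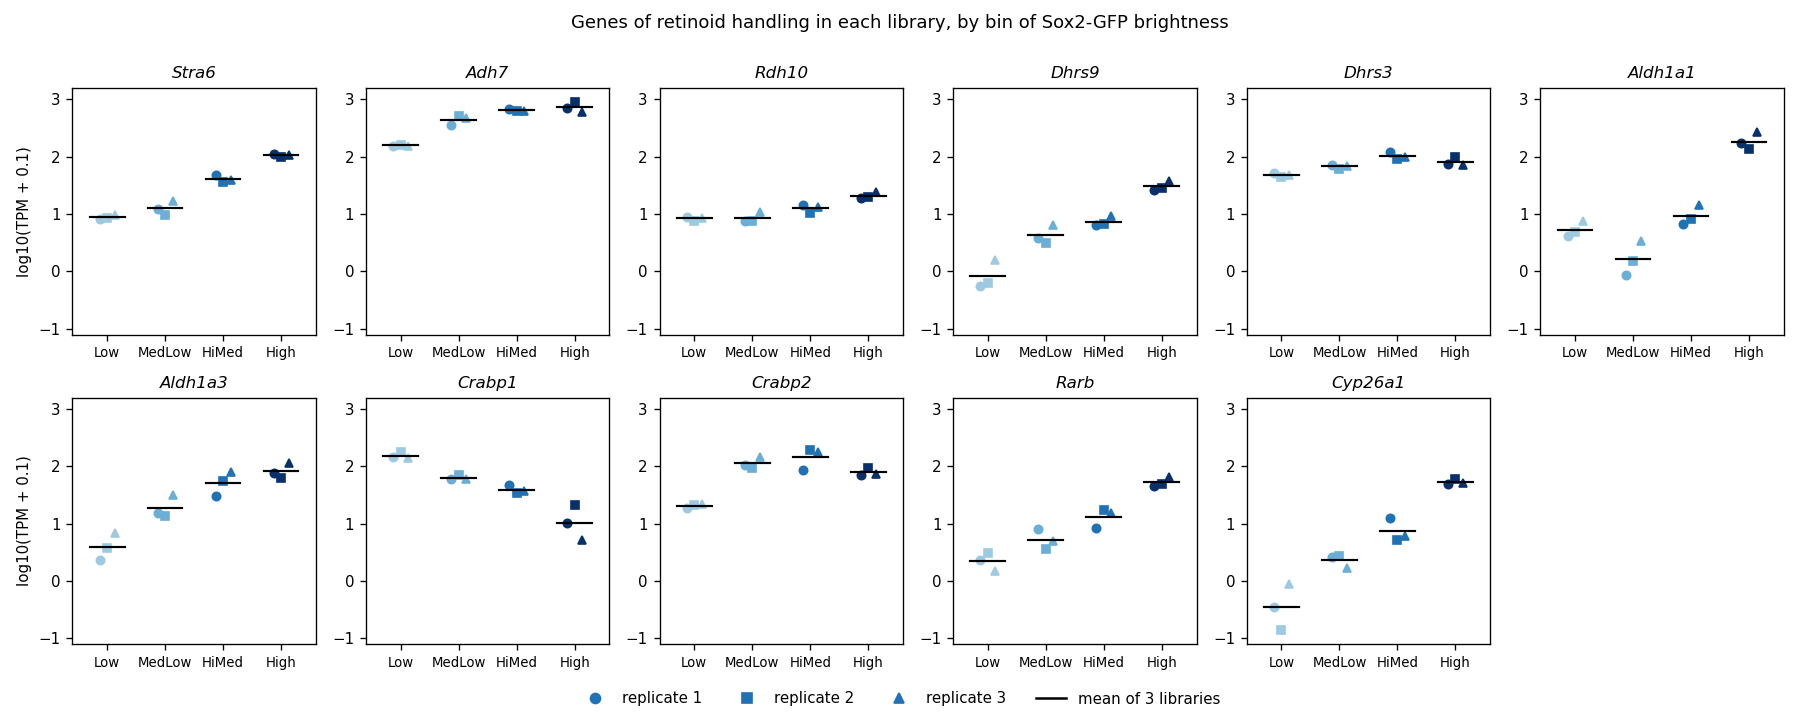
Level of 11 genes of retinoid handling as log10(TPM + 0.1) (vertical axis, the same in all panels) in the 3 libraries of each bin (horizontal axis, dimmest to brightest); symbols mark the replicate and black lines the mean of the log values. Stra6, Aldh1a3, Dhrs9, Rarb and Cyp26a1 climb with brightness, Crabp1 declines, and Aldh1a1 dips in MedLow before its jump in High.

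Genes that supply glutathione were split. Of 15 tested, 5 were higher in High than in Low and 5 lower (20% and 21.2% of all genes). The cystine carrier Slc7a11 rose by 2.08 (5.15 ± 1.65 TPM in High and 1.1 ± 0.0305 in Low, adjusted p = 1.4e-05), glutathione reductase Gsr by 1.72 (86.9 ± 13.6 TPM in High and 22.4 ± 1.35 in Low, adjusted p = 8.2e-09) and the glutathione peroxidase Gpx2 by 1.53 (1421 ± 129.9 TPM in High and 439 ± 16.6 in Low, adjusted p = 3.9e-09). Of the glutathione synthesis genes, Gclm, the regulatory subunit of the rate-limiting ligase, fell by 1.02 (125 ± 18.8 TPM in High and 227 ± 26.3 in Low, adjusted p = 7.4e-07) and Gss by 1.32 (22.6 ± 5.68 TPM in High and 48.2 ± 8.69 in Low, adjusted p = 4.4e-06). The catalytic subunit Gclc did not pass the test for High over Low (0.08, adjusted p = 0.623), and it was higher in HiMed than in MedLow (0.44, adjusted p = 0.0104). Among 10 other glutathione S-transferases and related membrane enzymes, none was higher and 2 were lower in High than in Low, Gstcd (-0.54, adjusted p = 0.0135) and Ptges (-0.35, adjusted p = 0.00474).

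Several of these enzymes are known targets of Nrf2, the factor encoded by Nfe2l2 that answers oxidative stress by binding antioxidant response elements. Of 16 regulators and targets outside the families, 7 were higher in High than in Low and 3 lower (20% and 21.2% of all genes). Nqo1, the quinone reductase often read as an Nrf2 target, had 135 ± 32.4 TPM in High and 55.8 ± 4.45 in Low (1.08, SE 0.16, adjusted p = 1.1e-04), G6pdx rose by 0.79 (adjusted p = 8.7e-06) and Txnrd1 by 0.72 (adjusted p = 5.6e-05), while Txn1 fell by 1.01 (adjusted p = 1.8e-06). Nfe2l2 itself rose by 0.44 (SE 0.09, adjusted p = 6.8e-04). Promoters from RefSeq (GRCm38.p6, another build than the counts used) were matched for 44 of the 55 members, and the core letters TGACNNNGC of the response element, read on both strands in the 250 bases before each start, occurred in 4 of these 44 genes (9.09%) and in 11.5% of all 27025 genes with a promoter. The 4 were Aldh9a1, Gsta3, Gstm5 and Gstm7. Shown are 3 of the stretches, each the 150 bases before the start with the match in capitals, because they are where the searched element lies in these families. The match begins 121 bases before the start in Gsta3 (chr1:21240435-21240584), 87 in Aldh9a1 (chr1:167349841-167349990) and 42 in Gstm5 (chr3:107895704-107895853), all on the plus strand.
Gsta3: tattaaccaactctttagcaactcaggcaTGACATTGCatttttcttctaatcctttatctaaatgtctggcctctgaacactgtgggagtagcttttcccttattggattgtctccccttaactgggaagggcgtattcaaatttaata
Aldh9a1: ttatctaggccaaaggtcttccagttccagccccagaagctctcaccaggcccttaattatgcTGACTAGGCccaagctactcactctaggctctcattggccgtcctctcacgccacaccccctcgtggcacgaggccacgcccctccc
Gstm5: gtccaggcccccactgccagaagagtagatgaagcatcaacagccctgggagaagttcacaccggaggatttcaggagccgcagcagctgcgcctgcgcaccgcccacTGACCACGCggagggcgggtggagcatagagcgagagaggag

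These 3 genes had no course in common: Gstm5 was called in no comparison, Gsta3 was highest in HiMed, and Aldh9a1 was called lower in HiMed than in MedLow and in High than in Low. Gsto1, Gsta4, Aldh3a1 and Adh7, the members with the most RNA in High, were not among the 4, and of these Gsta4 and Aldh3a1 were not matched.

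The remaining lists held genes of both directions. Beside their counts, 20% of all genes tested were higher in High than in Low and 21.2% lower. Of 14 tested aldehyde and carbonyl reductases and oxidases, 8 were higher in High than in Low and 5 lower. Dcxr, a dicarbonyl and xylulose reductase, rose by 1.98 (131 ± 27.3 TPM in High and 29.7 ± 4.96 in Low, adjusted p = 8.3e-07), and the carbonyl reductase Cbr1 by 1.45 (153 ± 11.8 TPM in High and 49.0 ± 1.51 in Low, adjusted p = 1.8e-08). Aldehyde oxidase Aox3 had 0.321 ± 0.0646 TPM in High and 17.4 ± 4.61 in Low (-5.66, adjusted p = 3.4e-10), while its relative Aox1 rose by 1.56 (8.68 ± 2.42 TPM in High and 2.56 ± 0.401 in Low, adjusted p = 6.8e-05). Of 10 genes that supply glucuronic acid and sulfate donors, 3 were higher and 2 lower, and Ugdh, which makes UDP-glucuronic acid, had 40.7 ± 10.8 TPM in High and 101 ± 12.8 in Low (-1.57, adjusted p = 5.9e-09). Of 9 carriers that export conjugates, 2 were higher and 5 lower, with Slco3a1 at 87.1 ± 20.5 TPM in High and 4.49 ± 0.640 in Low (4.04, adjusted p = 5.1e-07) and Abcc3 at 9.31 ± 0.737 TPM in High and 26.1 ± 4.94 in Low (-1.68, adjusted p = 3.4e-09). Of 9 other conjugating and hydrolysing enzymes, 4 were higher and 2 lower, led by the arsenic methyltransferase As3mt (2.42, adjusted p = 4.8e-06). Of the 5 tested xenobiotic receptors and targets, Ahr rose by 1.20 (37.5 ± 6.41 TPM in High and 15 ± 2.12 in Low, adjusted p = 4.3e-06) and Rxra fell by 0.96 (adjusted p = 8.8e-07), and Nr1i2 and Nr1i3, receptors known as xenobiotic sensors of the liver, did not reach the count filter.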

How the data were processed

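The deposited tables are named as Salmon output by the authors and hold its estimated counts and TPM per gene symbol. Salmon 1.4.0, DESeq2 1.28.1 and build mm39 are named in the submitters' processing notes, with no further role stated. Which annotation they used is not given in the sources used here. Expected counts were rounded and tested with edgeR 4.0.16 (R 4.3.3): a filter on low counts (filterByExpr, minimum 10; the genes left out hold 0.034% of counts), TMM scaling, a robust quasi-likelihood fit with 1 term per bin over all 12 libraries, and Benjamini-Hochberg adjustment over all genes per comparison. SEs are those the F statistic implies. The test was checked on simulated data. Levels are the deposited TPM, with no TMM scaling. The floor is 3 counts over a bin's 3 libraries. Transcript words of 31 bases came from GENCODE transcripts of build GRCm38. Alternatives were other scalings, DESeq2 1.42.0, no filter, limma 3.58.1 on log2(TPM + 1) and log2(TPM + 0.1), other TPM thresholds for members, a replicate block and leaving out each library. No values per library were left unused.

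Replicate numbers were taken to pair libraries, since each replicate is described as a pool of mice sorted into bins, although no label ties a number to 1 pool in so many words. As a check, deviations of 9402 genes from their bin means were correlated between libraries: r was 0.0447 to 0.382 for the 18 pairs with the same number (over 0.1 in 17) and -0.208 to -0.00173 for the 36 pairs with different numbers. Members and gene lists were chosen with earlier results of these data known. Values in every library are given for up to 4 members per family with the highest TPM and up to 4 more with the largest called change of High over Low, and up to 4 changed genes per list are named, with a few others of interest chosen after their values were seen. The labels do not say that mice differ between bins. The main fit has no replicate term, so its p-values rest on the spread between the 3 libraries of a bin. Pairing enters only with the replicate block. Values of some genes are not reported here.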

Additional observations from a re-analysis of the deposited data

How the results depend on the processing

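None of the 88 gene calls of members in the 4 comparisons changed direction under the 21 alternatives, and 60 were kept under all of them. Of the counts of called members, those for High over Low (32, from 27 to 34), High over HiMed (22, from 20 to 26) and any difference (37, from 32 to 40) stayed within 1.5 times. HiMed over MedLow (18) came to 10 on log2(TPM + 1) without a filter, and to between 9 and 19 when 1 library was left out. MedLow over Low (16) came to 10 on log2(TPM + 1) without a filter, and to between 10 and 20 when 1 library was left out. Leaving out 1 library gave 29 to 34 for High over Low, 20 to 25 for High over HiMed and 34 to 39 for any difference. With a replicate block the counts were 30, 24, 19, 19 and 37 for High over Low, High over HiMed, HiMed over MedLow, MedLow over Low and any difference, and the block changed no call other than the 12 given with their genes, Aldh4a1 among them (MedLow over Low -0.36, adjusted p = 0.0187 with the block and 0.0781 without). At HiMed over MedLow the split of 9 higher and 9 lower was 8 and 5 on log2(TPM + 0.1), 5 and 7 with no filter, 4 and 6 on log2(TPM + 1) without a filter, 6 and 13 without HiMed replicate 2, and 3 and 6 without MedLow replicate 1, MedLow replicate 2 or HiMed replicate 3. The test of any difference was not run on 6 libraries. With 3 libraries a bin, small changes may be missed, and rare members such as Gstp3, Ugt1a2 and Gsta5 rest on few counts.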
